A study of Mus musculus with 4 samples.

Results

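The genes described here are 44 genes of macroautophagy and of the lysosome, taken as a fixed list from the 55401 genes in the tables of mouse optic nerve RNA. The list was chosen with earlier results of these data known, and all 44 genes were found by symbol. They comprise 21 genes of the autophagy core, 7 cargo receptors, 2 transcription factors that act on lysosomal genes and 14 lysosome genes. The ATG8 family of ubiquitin-like proteins was left out of the list. RNA of optic nerves was measured in 2 libraries of the genotype Dor WT, the controls, and in 2 libraries of the genotype Dor cKO, the mutants, by stranded sequencing of polyadenylated RNA. The title of the study concerns the role of Dor in mature oligodendrocytes, the cells that make myelin. The labels state no age, sex or strain, no promoter driving the deletion, no other allele and no number of animals per library. Control tables have a mark in their names that mutant tables do not, which no label explains, so a difference in age or batch cannot be told apart from the genotype.

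Macroautophagy encloses cytoplasm in a double membrane, the autophagosome, which then fuses with the lysosome, an acidic compartment full of hydrolases. A kinase complex starts the process, a lipid kinase complex marks the membrane, a ubiquitin-like conjugation system attaches ATG8 proteins to it, and cargo receptors tie the cargo to those proteins. Dor, also called Trp53inp2, is a nuclear and cytoplasmic protein known to bind ATG8 proteins. In myelinating glia, lysosomes handle membrane turnover and supply myelin proteins to the cell surface.

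The libraries held between 17263830 and 21595832 expected counts, estimates of the number of reads per gene. Trp53inp2 itself had 138 and 134 CPM, counts scaled to library size, in the controls against 105 and 107 CPM in the mutants. Its fall by 0.36 (log2, SE 0.04, edgeR adjusted p = 2.73e-08) is a value for the whole gene in whole tissue that does not by itself check a deletion in some cells or exons. The Trp53inp2 call was lost under a coefficient of variation of 0.1 (adjusted p = 0.111) and by limma on log2(TPM + 1) (-0.28, adjusted p = 0.078). Estimated mean fragment lengths were 259.6 and 260.0 bases in Dor WT and 245.5 and 245.3 bases in Dor cKO. Mbp of myelin was among the abundant genes, and none of 12 oligodendrocyte or 8 astrocyte markers was at 0 in all libraries. That holds for every other marker list except retina, with 1 gene at 0, so it cannot check the tissue label. The summed CPM of the 12 oligodendrocyte markers was 31172 to 31309 in Dor WT and 17961 to 18042 in Dor cKO, with 12 of 12 lower. The 12 pituitary and hypothalamus markers summed to 143 and 139 CPM in Dor WT and to 24.01 and 24.8 CPM in Dor cKO. Of the 9 tested, 8 were called lower and 0 higher, where 13.4% of all tested genes were lower. Chga held 87.3 and 90.4 CPM of the Dor WT sums. Cga had 15.8 and 17.3 CPM in Dor WT and 0 in both Dor cKO libraries. Whether the dissected tissue differed between the groups was not tested, and such a difference cannot be told apart from the genotype. In bulk tissue, fewer cells of a type and less RNA per cell cannot be told apart.

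Lysosome genes had the highest median level of the 44 and core genes the lowest. On the TPM scale, which corrects counts for transcript length, the median level over the 4 libraries was 109 TPM for the lysosome genes, 66.1 TPM for the receptors, 28.6 TPM for the transcription factors and 19.2 TPM for the core. Ctsd, which encodes the aspartic protease cathepsin D, was highest at 575 ± 9.45 TPM in Dor WT and 554 ± 3.94 TPM in Dor cKO (SD, n = 2 per group). Lamp1, a glycoprotein of the lysosomal membrane, followed at 509 ± 30.9 and 505 ± 24.8 TPM, and then came the cysteine protease genes Ctsb and Ctsl. The libraries of Ctsd, at 552 to 581 TPM, all lay above those of Lamp1, at 487 to 531 TPM, and those of Ctsb, at 424 to 471 TPM, below both. Ctsl, Sqstm1 and Lamp2 followed without overlap, and overlap of neighbours began with Bnip3l and Npc2, near 136 TPM. Sqstm1 was the highest receptor at 249 ± 5.28 TPM in Dor WT. Becn1, a subunit of the lipid kinase complex, was the highest core gene at 122 ± 14.3 TPM in Dor WT, well apart from the next core gene, Wipi2, at 42.7 ± 0.785 TPM. Atg10, the conjugating enzyme of the ATG12 branch, was the lowest of all at 6.78 ± 1.39 TPM in Dor WT. Its lowest count in a library was 75, so no member was limited to a handful of reads.

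**Figure D1:**
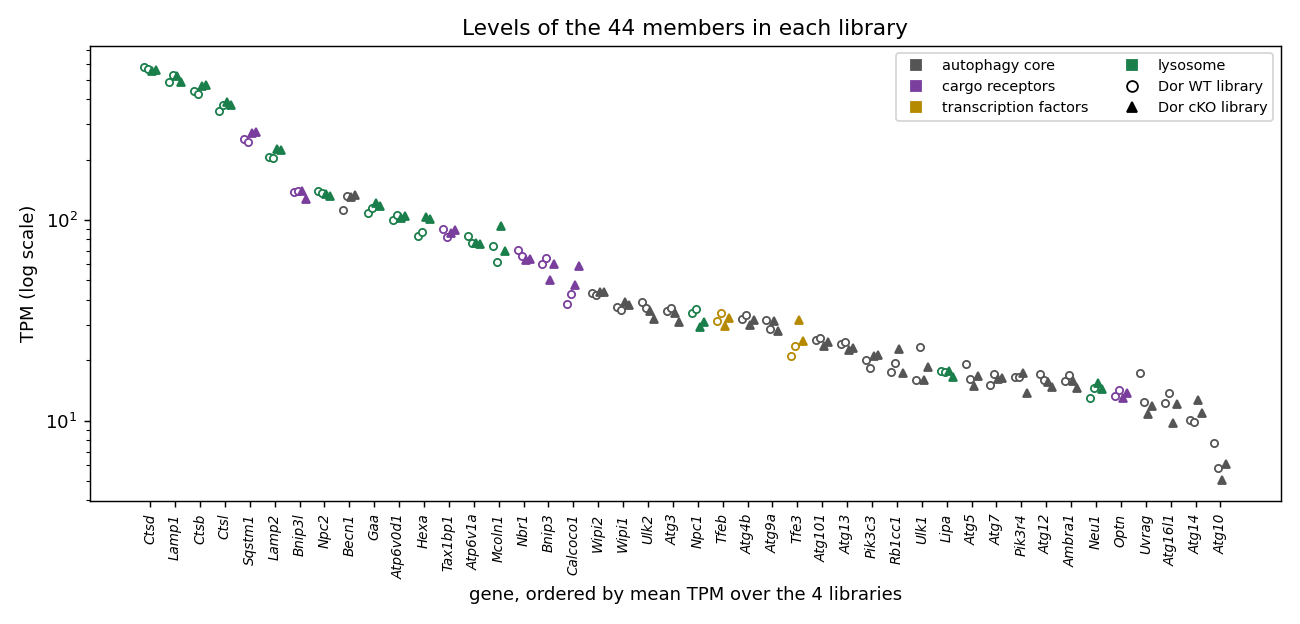
Level of each of the 44 genes in TPM on a log scale, with 2 Dor WT libraries as open circles and 2 Dor cKO libraries as filled triangles, ordered by the mean over the 4 libraries and coloured by role. The 4 highest are lysosome genes, led by Ctsd at a mean of 564 TPM, and most of the lower end is core genes, down to Atg10 at 6.18 TPM, with the lysosome genes Npc1, Lipa and Neu1 among them.

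The comparison of Dor cKO with Dor WT asked whether these genes differ between the groups of libraries. Of the 44 genes, all of which passed the filter on low counts, 8 rose and 3 fell at an edgeR adjusted p under 0.05, which is 25% of them. Over all 16751 genes tested, 27.7% were called, 14.3% higher and 13.4% lower, so the share among the members was near the background. Among the 12443 tested genes in the members' own CPM range, 34.5% were called, 17.9% higher and 16.6% lower, and the members' share was below that. The changes were small: the 11 called genes differed by 1.08-fold to 1.29-fold, and 0 of the 44 by 1.5-fold or more. The median log2 fold change of the members was -0.00, against -0.00 over all tested genes. The groups did not overlap in CPM for 25 of the 44 members (56.8%), against 60.8% of all tested genes and 66.1% of those in the members' CPM range. By role, 0 core genes rose and 1 of 21 fell, 2 receptors of 7 rose and 1 fell, and 5 lysosome genes of 14 rose and 1 fell.

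**Figure D2:**
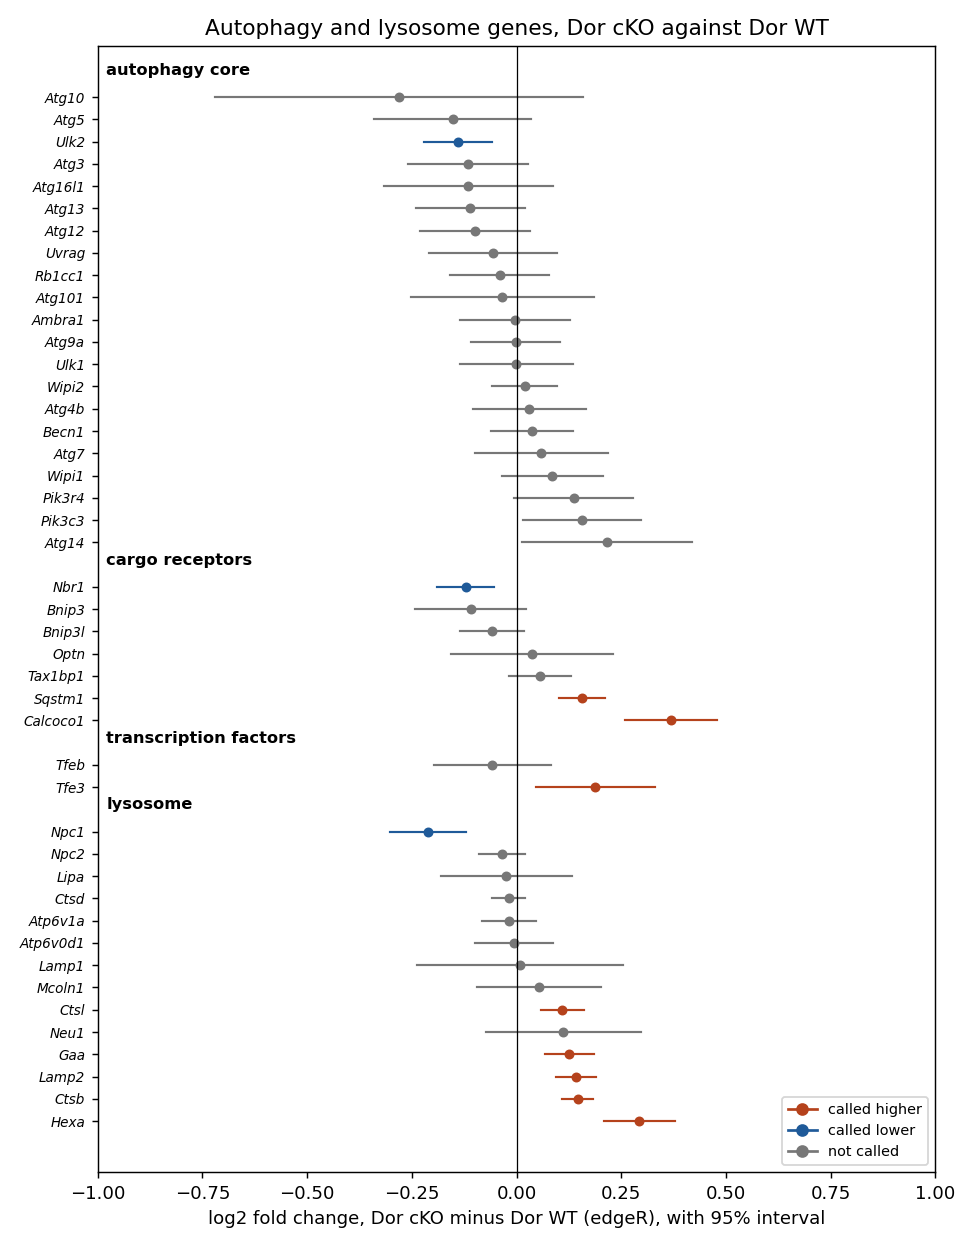
Log2 fold change of each of the 44 genes, Dor cKO minus Dor WT, with its 95% interval from the edgeR fit, grouped by role. Red points were called higher (8 genes), blue points called lower (3 genes) and grey points not called (33 genes), and all points lie between -0.28 (Atg10) and 0.37 (Calcoco1).

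These calls rest on the small spread between the 2 libraries of a group, which nothing in the labels ties to separate animals and which may be technical. When every gene was given a biological coefficient of variation of 0.1, where 9.52% of all genes were still called, 0 of the 11 calls remained (edgeR adjusted p = 0.098 to 0.767), and limma on log2(TPM + 1) kept 1 of them, Hexa.

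Of the 21 genes of the autophagy core, only Ulk2 passed, where 14.3% of all tested genes were called higher and 13.4% lower, and the median log2 fold change was -0.00. By limma on log2(TPM + 1) the core median was -0.10, against -0.02 over all tested genes. The count of core genes higher at an unadjusted p under 0.05 was 2, Pik3c3 and Atg14, and DESeq2 called 0 core genes in either direction. The 95% intervals reflect only the spread between the 2 libraries of a group, which may be technical. They do not bound a change between animals. For 20 of the 21 genes the interval lay within 1.5-fold either way. Those reaching furthest were the intervals of Atg5, Atg14 and Atg10, at 1.27-fold, 1.34-fold and 1.648-fold. Summed over the 21 genes, the level was 1062 and 1060 CPM in the controls and 1057 and 1044 CPM in the mutants.

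Initiation depends on the ULK kinases and their partners Atg13, Atg101 and Rb1cc1, the mouse FIP200 gene. Ulk2 (chromosome 11, 61775649 to 61855073 on GRCm38), one of the ULK kinase genes, had 131 and 129 CPM in the controls and 121 and 115 CPM in the mutants. Both mutant libraries lay below both controls, and Ulk2 fell by 0.14 (SE 0.04, edgeR adjusted p = 0.00752). That call ended in DESeq2, at an adjusted p of 0.0805, on leaving out Dor cKO replicate 2 (-0.10, adjusted p = 0.17), and after a correction for the length and GC of transcripts (-0.09, adjusted p = 0.117). The related kinase gene Ulk1 had 48.1 and 55.1 CPM against 52.0 and 51.5 CPM, with groups that overlapped and a 95% interval of -0.14 to 0.13 on the log2 scale. Atg101, which stabilises Atg13, had 16.9 and 17.9 CPM in the controls and 16.4 and 17.6 CPM in the mutants. Atg13 had 52.7 and 54.1 CPM against 47.2 and 51.9 CPM, lower in both mutant libraries without passing (log2 fold change -0.11, edgeR adjusted p = 0.219). Rb1cc1 was at -0.04 with an interval of -0.16 to 0.08.

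Nucleation is the work of the lipid kinase Pik3c3 with Pik3r4, Becn1 and either Atg14 or Uvrag, and of Ambra1, which regulates Becn1. None of these 6 genes was called, where 27.7% of all tested genes were. Becn1 had 90.4 and 88.1 CPM in the controls and 94.7 and 88.3 CPM in the mutants, overlapping, with a 95% interval of -0.06 to 0.14. Pik3c3 (chromosome 18, 30272747 to 30348126), the catalytic subunit, had 41.2 and 37.6 CPM against 43.6 and 44.1 CPM. Its groups did not overlap, yet its log2 fold change of 0.16 missed the threshold (SE 0.07, edgeR adjusted p = 0.0957). The regulatory subunit gene Pik3r4 stood at 0.14 (edgeR adjusted p = 0.154), with -0.10 as its lowest value over the alternatives. Atg14, the subunit that directs the complex to the autophagosome, was at 0.22 (SE 0.10, edgeR adjusted p = 0.113). Uvrag, its counterpart on endosomes, was at -0.06 and Ambra1 at -0.00. Both Pik3c3 and Atg14 passed when Dor WT replicate 1 was left out (0.22, adjusted p = 0.0339, and 0.31, adjusted p = 0.0445), and Pik3c3 also after the length and GC correction (0.21, adjusted p = 0.0278).

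Membrane is brought to the growing autophagosome by vesicles that carry the lipid scramblase Atg9a, and Wipi1 and Wipi2 read the lipid mark there. Wipi2 had 130 and 129 CPM in the controls and 130 and 132 CPM in the mutants, with a 95% interval of -0.06 to 0.10. Wipi1 had 56.6 and 54.2 CPM against 59.9 and 57.6 CPM (log2 fold change 0.09, edgeR adjusted p = 0.318), and Atg9a was at -0.00. None of the 3 was called, where 27.7% of all tested genes were.

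Conjugation uses the activating enzyme Atg7, the conjugating enzymes Atg3 and Atg10, the protease Atg4b, which trims ATG8 proteins, and the complex of Atg12, Atg5 and Atg16l1. Atg3 had 43.7 and 45.4 CPM in the controls and 43.4 and 38.9 CPM in the mutants, and Atg4b had 45.6 and 42.9 CPM against 44.8 and 45.4 CPM. Neither passed, with intervals of -0.26 to 0.03 and -0.10 to 0.17. Across the 7 conjugation genes, 5 had a negative log2 fold change and 2 a positive one, and the median was -0.11. By edgeR 0 passed, where 27.7% of all tested genes were called. By DESeq2 0 passed too, and 0 were at an unadjusted edgeR p under 0.05. Atg10 had the most negative value, -0.28, and the widest interval, -0.72 to 0.16.

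Cargo receptors moved in both directions. Calcoco1 and Sqstm1 rose, Nbr1 fell, and Bnip3l, Tax1bp1, Bnip3 and Optn were not called. That is 3 called of 7, where 27.7% of all tested genes were called, and the median log2 fold change was 0.04, or -0.05 by limma on log2(TPM + 1). Calcoco1 (chromosome 15, 102706777 to 102722178), a receptor for endoplasmic reticulum and Golgi cargo, had 63.6 and 69.0 CPM in the controls and 83.3 and 88.4 CPM in the mutants. The groups were well apart, and the rise of 0.37 (SE 0.05, edgeR adjusted p = 2.96e-06), or 1.29-fold, was the largest change among the 44 genes. Sqstm1 (chromosome 11, 50199366 to 50210827), which links ubiquitinated cargo to ATG8 proteins, had 315 and 301 CPM against 339 and 346 CPM and rose by 0.16 (SE 0.03, adjusted p = 2.95e-05). Nbr1 (chromosome 11, 101552149 to 101581951), a receptor that works together with Sqstm1, had 187 and 180 CPM against 166 and 171 CPM and fell by 0.12 (SE 0.03, adjusted p = 0.00577). Sqstm1 and Nbr1 are thus partners whose libraries separated in opposite directions.

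The Nbr1 call was less firm than the other two. It missed the threshold in DESeq2, at an adjusted p of 0.0723, and after the length and GC correction (-0.06, adjusted p = 0.218). Leaving out Dor WT replicate 1 gave -0.10 at an adjusted p of 0.057, and leaving out Dor cKO replicate 1 gave -0.10 at an adjusted p of 0.104. Bnip3l, a receptor on mitochondria, had 165 and 155 CPM in the controls and 149 and 157 CPM in the mutants, overlapping. Tax1bp1, a ubiquitin-binding receptor, had 179 and 165 CPM against 178 and 179 CPM, so that 1 control library lay below the other three. Among the alternatives run it passed on leaving out Dor WT replicate 1 (0.11, adjusted p = 0.0227) and after the length and GC correction (0.16, adjusted p = 0.00144). Bnip3, the relative of Bnip3l, was at -0.11 and Optn, a ubiquitin-binding receptor, at 0.04, both without a call.

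**Figure D3:**
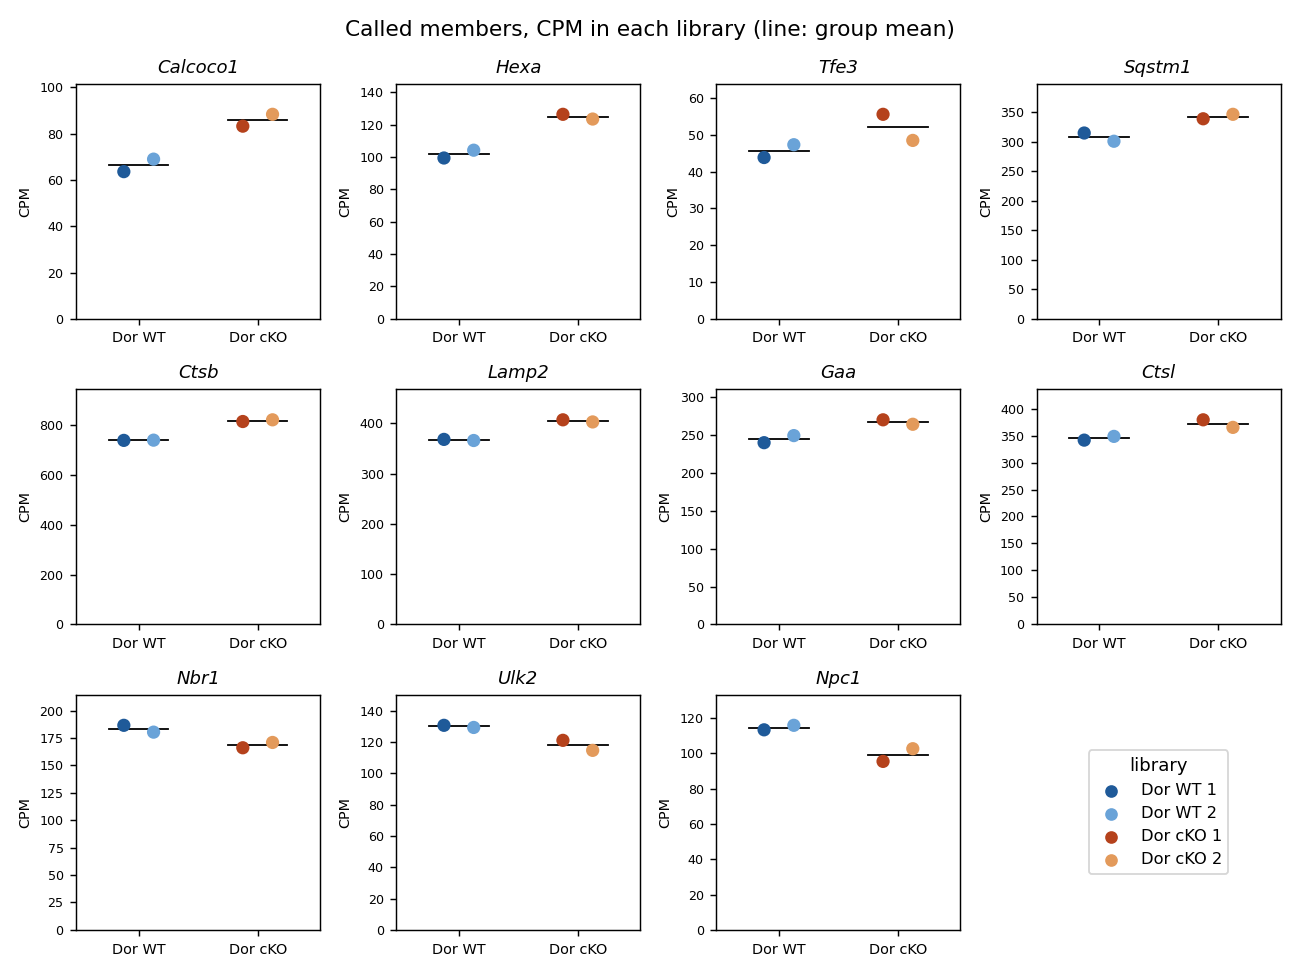
CPM of the 11 called genes in each of the 4 libraries, with a black line at the mean of each group of 2 and every axis starting at 0. In every panel both Dor cKO libraries lie on the same side of both Dor WT libraries, by margins that are small beside the level, as for Ctsb at 738 and 739 CPM against 814 and 821 CPM.

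Tfeb and Tfe3 encode related transcription factors that drive lysosomal and autophagy genes. Tfe3 (chromosome X, 7762560 to 7775202) had 43.8 and 47.3 CPM in the controls and 55.5 and 48.5 CPM in the mutants, and rose by 0.19 (SE 0.07, edgeR adjusted p = 0.0418). The second mutant library lay only just above the higher control. The adjusted p was 0.191 in DESeq2, 0.0715 when edgeR scaled by total count and 0.0754 after the length and GC correction. It was 0.219 on leaving out Dor WT replicate 1 (0.14) and 0.555 on leaving out Dor cKO replicate 1 (0.09), so the call did not survive these. Tfeb had 44.1 and 44.4 CPM against 40.6 and 44.5 CPM and was not called, with a 95% interval of -0.20 to 0.08.

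These factors bind the E-box CACGTG, which is the centre of the element of lysosomal promoters known as CLEAR. Promoters from RefSeq (GRCm38.p6), running from 250 bases before to 50 bases after each gene's start, were held for 36 of the 44 members. CACGTG, which reads the same on both strands, was in the promoter of 12 of these 36 genes, against 8.09% of all 27025 genes with a promoter. By role it was in 7 of 12 lysosome genes, 4 of 16 core genes, 1 of 6 receptors and 0 of 2 transcription factors. TCACGTG on either strand, which contains CACGTG, was in 9 of the 36 against 4.29% of all genes. The palindrome TCACGTGA, which contains both, was in 5 of the 36 against 304 of all 27025 genes. The full palindromic CLEAR element of 10 bases, which extends it, was in 0 of the 36 against 100 of all 27025 genes. The following windows of 30 bases show the E-box in members of the core, the receptors and the lysosome, 5′ to 3′ on the strand of the gene with the E-box in capitals, among them the 2 most abundant lysosome genes.
Lamp1: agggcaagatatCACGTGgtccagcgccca
Ctsd: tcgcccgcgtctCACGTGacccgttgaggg
Mcoln1: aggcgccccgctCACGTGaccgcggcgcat
Atp6v1a: ttttttttaaatCACGTGataggcttaacg
Gaa: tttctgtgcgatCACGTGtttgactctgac
Ctsl: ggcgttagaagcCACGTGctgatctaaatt
Atg3: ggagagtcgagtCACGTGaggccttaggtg
Bnip3: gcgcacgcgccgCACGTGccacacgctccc

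The windows lie at chr8:13159088-13159117 on the plus strand (Lamp1), chr7:142387908-142387937 on the minus strand (Ctsd), chr8:3500462-3500491 on the plus strand (Mcoln1) and chr16:44139373-44139402 on the minus strand (Atp6v1a). The other four lie at chr11:119267811-119267840 on the plus strand (Gaa), chr13:64370739-64370768 on the minus strand (Ctsl), chr16:45158746-45158775 on the plus strand (Atg3) and chr7:138909597-138909626 on the minus strand (Bnip3). In GENCODE M21 the E-boxes of Lamp1, Gaa, Atg3 and Bnip3 are upstream of the annotated gene. Those of Ctsd, Mcoln1 and Ctsl fall in an exon annotated as UTR of at least 1 transcript, and that of Atp6v1a falls in an intron. Lamp1 held 4 copies of CACGTG in its promoter, and Atg3, Ctsd and Mcoln1 held 2 each. By call, the E-box was in 2 of the 7 genes called higher that had a promoter (Gaa and Ctsl), in 0 of 2 called lower and in 10 of 27 not called, a description with no test.

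Of the 14 lysosome genes 5 rose and 1 fell, where 14.3% of all tested genes were called higher and 13.4% lower. Lamp2, Ctsb, Ctsl, Hexa and Gaa rose, Npc1 fell, and the median log2 fold change of the 14 was 0.03. Summed over the 14 genes, the level was 3975 and 4026 CPM in the controls and 4197 and 4127 CPM in the mutants.

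Among the hydrolases, Hexa (chromosome 9, 59539540 to 59565109), the alpha subunit of beta-hexosaminidase, which degrades gangliosides, had 99.4 and 104 CPM in the controls and 126 and 123 CPM in the mutants. It rose by 0.29 (SE 0.04, edgeR adjusted p = 1.82e-06), or 1.23-fold, the largest change of a lysosome gene here. Hexa was also the only member called by limma on log2(TPM + 1) (adjusted p = 0.0394). Ctsb (chromosome 14, 63122462 to 63145923), the gene of the protease cathepsin B, had 738 and 739 CPM against 814 and 821 CPM and rose by 0.15 (SE 0.02, edgeR adjusted p = 2.27e-07). Its control libraries were nearly equal and its mutant libraries both about 1.11-fold higher. Ctsl (chromosome 13, 64359337 to 64370890), the gene of cathepsin L, had 342 and 348 CPM against 379 and 365 CPM and rose by 0.11 (SE 0.03, adjusted p = 0.00127), a call that ended on leaving out Dor cKO replicate 1 (0.08, adjusted p = 0.0803). Gaa (chromosome 11, 119267887 to 119285454), which encodes acid alpha-glucosidase for the breakdown of glycogen, had 240 and 250 CPM against 270 and 265 CPM and rose by 0.13 (SE 0.03, adjusted p = 9.88e-04). Ctsd, the most abundant member, had 739 and 716 CPM against 715 and 721 CPM. Its groups overlapped, and its interval of -0.06 to 0.02 lay within 1.04-fold. Lipa, which hydrolyses cholesteryl esters, was at -0.02 and the sialidase gene Neu1 at 0.11, neither called.

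Among membrane and transport proteins, Lamp2 (chromosome X, 38401357 to 38456454), a lysosomal membrane glycoprotein needed for fusion and for chaperone-mediated autophagy, had 368 and 366 CPM in the controls and 407 and 403 CPM in the mutants. It rose by 0.14 (SE 0.02, edgeR adjusted p = 1.73e-05). Its relative Lamp1 (chromosome 8, 13159161 to 13175338) had 662 and 719 CPM against 719 and 672 CPM, with groups that overlapped fully and a wide interval of -0.24 to 0.25 for a gene of its level. Npc1 (chromosome 18, 12189692 to 12236400), which exports cholesterol from the lysosome, had 113 and 116 CPM against 95.4 and 103 CPM and fell by 0.21 (SE 0.04, adjusted p = 4.1e-04), or 1.16-fold. Npc2, the soluble protein that hands cholesterol to Npc1, had 285 and 278 CPM against 277 and 272 CPM and did not pass (log2 fold change -0.04, adjusted p = 0.374). The calcium channel gene Mcoln1 was at 0.05. The proton pump subunit genes Atp6v0d1 and Atp6v1a were at -0.01 and -0.02, with intervals within 1.07-fold and 1.06-fold.

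Markers of phagocytic cells, which are rich in lysosomes, and of other cells of the nerve were measured beside these genes. Over all tested genes, 14.3% were called higher and 13.4% lower. Of 7 border macrophage markers, 6 rose and 0 fell, and their summed level was 234 to 240 CPM in the controls and 331 to 336 CPM in the mutants. Of 10 microglia markers, 4 rose and 1 fell, with sums of 631 to 636 CPM and 717 to 726 CPM. Within that list Csf1r and Tmem119 rose by 0.34 and 0.48, P2ry12 fell by 0.27, and Cx3cr1 was at -0.01 without a call. Of 8 fibroblast markers, 7 rose and 1 fell, with sums of 10506 to 10510 CPM and 13369 to 13377 CPM. Of 8 astrocyte markers, 7 rose and 1 fell, with sums of 13817 to 13833 CPM and 15165 to 15182 CPM. No marker of these 4 lists was at 0. Of 6 blood leukocyte markers tested, 2 rose and 0 fell, and the list of 8 summed to 61.5 and 64.9 CPM against 78.8 and 82.0 CPM. Of 6 endothelial markers, 2 rose and 0 fell, with sums of 237 and 244 CPM and 282 and 286 CPM. Of 6 neuron body markers, 0 rose and 1 fell, with sums of 78.9 and 83.7 CPM and 77.9 and 80.5 CPM. The part of these cells in the lysosome result was not tested.

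The wider pathway was examined with 7 further lists of genes, which were chosen with earlier results of these data known. Of the 20 called genes named from them, 4 were still called under a coefficient of variation of 0.1 and 9 by limma on log2(TPM + 1). Of 43 other lysosomal hydrolases tested, 22 rose and 2 fell, with a median log2 fold change of 0.14. That is 51.2% called higher, against 14.3% of all tested genes and 17.9% of those in the members' CPM range. Ctsc, an activator of leukocyte serine proteases, went from 43.98 and 41.9 CPM to 59.3 and 57.6 CPM and rose by 0.45 (SE 0.06, edgeR adjusted p = 1.43e-06). Ctsk, a collagen-degrading protease gene of bone and connective tissue, rose by 0.35 (SE 0.06) and the cysteine protease gene Ctsf by 0.33 (SE 0.05). The count of hydrolases called higher was 14 in DESeq2, 4 by limma on log2(TPM + 1) and 1 under a coefficient of variation of 0.1. Over all genes these settings called 1549, 666 and 703 higher, against 2399 of 16751 in the main fit. The lead of the hydrolases over all genes thus depended on the setting, and with 1 of 43 against 703 of 16751 it was not seen under a coefficient of variation of 0.1. The sums of macrophage, microglia, blood leukocyte, fibroblast, astrocyte and endothelial markers given above were higher in the same mutant libraries. The part of these cells in this result was not tested.

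Of 32 other lysosomal membrane and sorting proteins tested, 9 rose (28.1%) and 5 fell (15.6%), against 14.3% and 13.4% of all tested genes. Their median was 0.02, and no difference from the hydrolases was tested. Gnptab, which makes the mannose phosphate tag that sorts hydrolases to the lysosome, fell by 0.44 (SE 0.05, edgeR adjusted p = 9.55e-08). The nucleoside transporter gene Slc29a3 fell by 0.37 (SE 0.06), and Abca2, a lipid transporter gene abundant in oligodendrocytes, went from 285 and 274 CPM to 220 and 225 CPM and fell by 0.33 (SE 0.03). Of 18 other subunits of the proton pump tested, 3 rose (16.7%) and 5 fell (27.8%), with a median of -0.08, Atp6v0b down by 0.29 (SE 0.05), Atp6v0a2 down by 0.27 (SE 0.04) and Tcirg1 up by 0.38 (SE 0.09). The count of these subunits called higher was 1 in DESeq2 and 1 on leaving out Dor WT replicate 2.

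**Figure D4:**
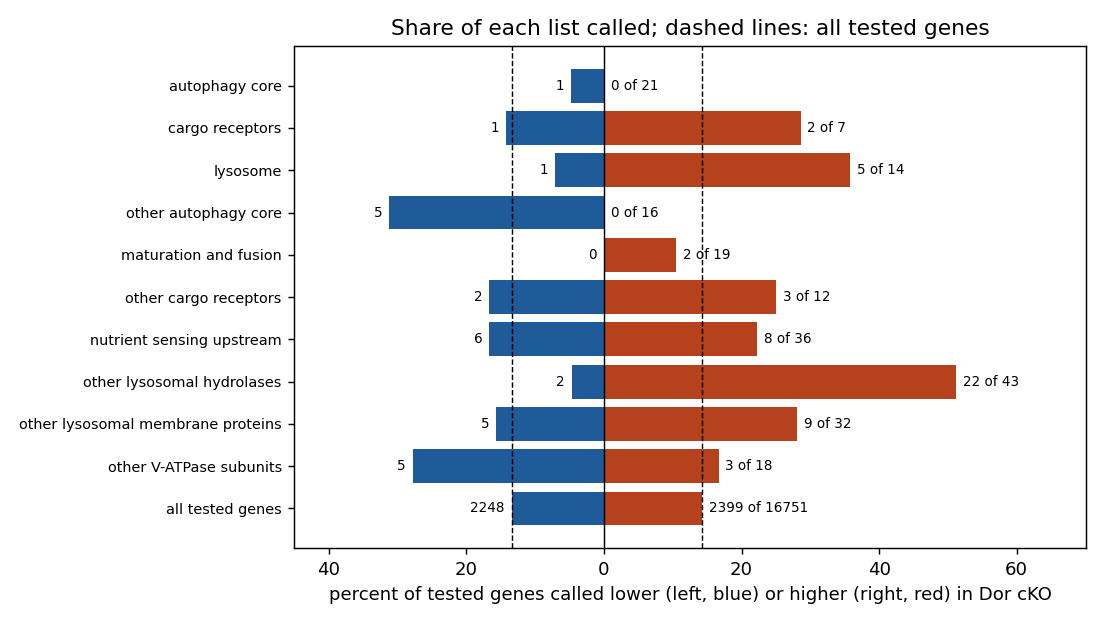
Percent of the tested genes of each list called lower (blue, to the left) or higher (red, to the right) in Dor cKO, with counts at the bars and dashed lines at 13.4% and 14.3%, the shares over all tested genes. The core bar is short, with 1 gene of 21 lower, and the longest bar is that of the other lysosomal hydrolases, with 22 of 43 higher.

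Beyond the members, 5 of 16 other core genes fell (31.25%) and 0 rose by edgeR, where 13.4% of all tested genes fell and 14.3% rose. Of these 16, 0 were higher at an unadjusted p under 0.05 and 0 by DESeq2. The count that fell was 3 in DESeq2 and 3 on leaving out Dor cKO replicate 1. Vmp1, a scramblase of the endoplasmic reticulum, went from 74.0 and 73.8 CPM to 57.0 and 56.7 CPM and fell by 0.38 (SE 0.05, edgeR adjusted p = 2.14e-06). Rubcn, an inhibitor of the Uvrag complex, fell by 0.37 (SE 0.05). Atg4a, a relative of Atg4b, fell by 0.32 (SE 0.10, adjusted p = 0.0171), a call that ended in DESeq2 (adjusted p = 0.119), after the length and GC correction (adjusted p = 0.0532) and on leaving out Dor WT replicate 2 or either mutant library (adjusted p = 0.0607 to 0.11). Of 19 genes of autophagosome maturation and fusion, 2 rose (10.5%) and 0 fell by edgeR, with 3 lower at an unadjusted p under 0.05 and 0 lower by DESeq2. The count that rose was 1 in DESeq2 and 1 on leaving out Dor cKO replicate 2. The membrane fusion gene Vamp8 went from 50.5 and 49.9 CPM to 67.5 and 68.7 CPM and rose by 0.44 (SE 0.06, adjusted p = 4.59e-07). Rab7, a small GTPase gene of late endosomes, rose by 0.08 (SE 0.02, adjusted p = 0.0222). The Rab7 call ended in DESeq2 (adjusted p = 0.14), with scaling by total count (0.06, adjusted p = 0.102), after the length and GC correction (0.05, adjusted p = 0.134) and on leaving out replicate 2 of either group, at 0.07 without the Dor WT library (adjusted p = 0.0884) and 0.06 without the Dor cKO library (adjusted p = 0.287), and its sign turned with limma on log2(TPM + 1) (-0.01, adjusted p = 0.97).

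Of 12 other cargo receptors tested, 3 rose (25%) and 2 fell (16.7%), where 14.3% of all tested genes were called higher and 13.4% lower. These counts were 1 and 2 in DESeq2, and 1 and 3 on leaving out Dor WT replicate 1. They were 1 and 1 without Dor cKO replicate 2, 3 and 3 without Dor WT replicate 2, and 2 and 2 without Dor cKO replicate 1. Tex264, a receptor for endoplasmic reticulum, rose by 0.30 (SE 0.06, edgeR adjusted p = 1.31e-04) and Retreg1, another such receptor, fell by 0.29 (SE 0.07, adjusted p = 0.00288), the latter not on leaving out Dor cKO replicate 2 (-0.23, adjusted p = 0.0675). Stbd1, a glycogen receptor gene, rose by 0.35 (SE 0.13, adjusted p = 0.0366), a call that ended in DESeq2 (adjusted p = 0.18), after the length and GC correction (adjusted p = 0.0685) and on leaving out each of the 4 libraries in turn (adjusted p = 0.0537 to 0.171). Of 36 genes of nutrient sensing upstream of autophagy, 8 rose (22.2%) and 6 fell (16.7%), beside the same shares of all tested genes. These counts were 3 and 3 in DESeq2, which called 1549 genes higher and 1392 lower in all. They also moved on leaving out single libraries. Sesn1, a stress-induced brake on mTOR, went from 95.2 and 96.8 CPM to 121 and 129 CPM and rose by 0.38 (SE 0.04, adjusted p = 3.06e-08). Mitf, a relative of Tfeb, went from 12.8 and 12.8 CPM to 9.10 and 8.77 CPM and fell by 0.52 (SE 0.13, adjusted p = 0.00359). Rragb, a GTPase gene that signals amino acids to mTOR, fell by 0.33 (SE 0.11, adjusted p = 0.02), a call that ended in DESeq2 (adjusted p = 0.132) and on leaving out 1 library, with -0.22 (adjusted p = 0.236) when Dor WT replicate 2 was dropped and -0.26 (adjusted p = 0.188) when Dor cKO replicate 1 was.

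The tables also give each gene a mean transcript length, weighted by the estimated share of its transcripts, which can show a change of isoforms that a count per gene does not. It differed by 5% or more between group means in 10 of the 44 members, against 28.6% of all tested genes, and in 4 of the 44 the libraries of the 2 groups also did not overlap, against 15%. Uvrag had the widest difference, with 3100 and 4560 bases in Dor WT and 4679 and 4461 bases in Dor cKO. That difference came with a control library far below the other three, and the 2 groups overlapped. Its TPM followed, at 17.3 and 12.3 TPM in Dor WT against 10.8 and 11.8 TPM in Dor cKO, whereas its CPM differed little, at 33.9 and 36.5 against 33.2 and 34.5. The 4 without overlap were Pik3r4, Tfe3, Atg16l1 and Ambra1. Pik3r4 had 3493 and 3670 bases in Dor WT and 3739 and 4589 bases in Dor cKO, 16.3% longer in the mean. Tfe3 had 3274 and 3162 bases in Dor WT and 2779 and 3036 bases in Dor cKO, shorter in both mutant libraries. Atg16l1 and Ambra1 were longer in Dor cKO, by 8.37% and 5.82% in the mean. For Mcoln1 the lengths of 937 and 1134 bases against 807 and 1027 bases overlapped.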

How the data were processed

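Each library has 1 gene table in RSEM's layout, per the file headers, in which the authors deposited an expected count, a TPM value and mean transcript lengths per gene. Expected counts share reads between genes that fit them equally well and need not be whole. The deposited TPM values correct for transcript length and library size. Trimmomatic 0.36, STAR 2.7.9a, RSEM 1.3.1 and GRCm38 are listed, per the submitters' processing notes. No release of the annotation and no use of strand in counting was stated, so genes that overlap another gene may share reads. GENCODE M21 symbols matched 55141 of 55401 identifiers, and the 260 others held 0.00297% of counts.

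Expected counts were rounded, genes were filtered with filterByExpr (minimum count 10, minimum total 15), and edgeR 4.0.16 (R 4.3.3, TMM scaling, robust quasi-likelihood test, group as the only term, Benjamini-Hochberg over 16751 genes) compared the groups. The common biological coefficient of variation was 0.03477. CPM uses TMM-scaled totals, and SD is over 2 libraries. Log2 fold changes are Dor cKO minus Dor WT, and the SE is the fold change over the root of F. A floor of 3 counts lies at 0.139 to 0.174 CPM.

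The steps were tested on simulated data, drawn with a spread near the common coefficient of variation above and with no difference in batch or tissue. Such a test cannot show whether the calls would hold between animals. The members and the lists were chosen with earlier results of these data known. Values in each library are given for called members and for the 2 most abundant members of each role that were not called, and up to 3 called genes are named per further list, those with the largest change at a mean of at least 5 CPM without overlap of the groups. Others named were chosen after their values were seen. Alternatives were DESeq2 1.42.0, other scalings and filters, limma 3.58.1 on log2(TPM + 1) or log2(TPM + 0.1), a replicate block, a set coefficient of variation, removal of a length and GC trend (mgcv 1.9.3) and leaving out each library. Over genes, deviations from the group means of libraries with the same number correlated at -0.01768. This cannot decide pairing, and the numbers were not taken as pairs because no label says that they are.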

Additional observations from a re-analysis of the deposited data

How the results depend on the processing

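Scaling by RLE, no low-count filter and a minimum of 1 CPM in 2 libraries kept all 11 called members, and total count scaling kept 10. The direction of the 11 was the same in all alternatives run. The groups of all 11 did not overlap in CPM, so leaving out a library, rescaling or refiltering could hardly turn a direction. With the replicate block 2562 genes were higher and 2409 lower, and all 11 members stayed called. Equal numbers correlated at -0.01768 over 16751 genes and at 0.13525 over the 12320 with a mean of at least 5 CPM. With 2 libraries per group this cannot decide whether they mark pairs, and the labels do not say.

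Against 2399 genes higher and 2248 lower in all, 8 and 3 members, 0 and 1 core genes, 2 and 1 receptors, 5 and 1 lysosome genes and 22 and 2 other hydrolases, the alternatives gave these counts in the same order. DESeq2 called 1549 and 1392 genes, 7 and 1 members, 0 and 0 core genes, 2 and 0 receptors, 5 and 1 lysosome genes and 14 and 0 hydrolases. The coefficient of variation of 0.1 gave 703 and 891 genes, 0 and 0 members, core genes, receptors and lysosome genes, and 1 and 0 hydrolases. With the length and GC trend removed there were 2476 and 1926 genes, 9 and 1 members, 1 and 0 core genes, and 3 and 0 receptors. With limma on log2(TPM + 1) there were 666 and 722 genes, 1 and 0 members, 0 and 0 core genes, 0 and 0 receptors, 1 and 0 lysosome genes and 4 and 0 hydrolases. A pseudocount of 0.1 gave 672 and 734 genes, with the same counts as log2(TPM + 1) for members, core, receptors, lysosome and hydrolases (1 and 0, 0 and 0, 0 and 0, 1 and 0, 4 and 0). Without a filter, limma gave 320 and 347 genes and 0 and 0 in each of the lists. Total count scaling gave 2161 and 2529 genes and 4 hydrolases lower. The causes of these differences were not tested.

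Leaving out each library in turn gave 1782 to 2184 genes higher and 1670 to 2073 lower, 6 to 10 members higher and 2 to 3 lower, 0 to 2 core genes higher and 0 to 1 lower, 2 to 3 receptors higher and 0 to 1 lower, 4 to 5 lysosome genes higher and 1 to 1 lower, and 14 to 19 other hydrolases higher and 0 to 2 lower. Rab7 reversed with limma, at -0.00649 on log2(TPM + 1) with and without the filter and at -0.00652 on log2(TPM + 0.1). Depth limited Atg10 most, with 75 to 104 counts per library and an interval that reached 1.648-fold.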
